A study of Mus musculus with 24 samples.

Results

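The 9 genes described here code for the death receptors Tnfrsf1a, Fas and Tnfrsf10b, the adaptor Fadd, the initiator caspase Casp8 with its inhibitor Cflar, and the necroptosis kinases Ripk1 and Ripk3 with their effector Mlkl. They were taken from the table by symbol, as a list drawn up with earlier results of these data known, and all 9 were among the 24421 gene symbols of the deposited count table. All 9 also passed the filter on low counts, which left 13833 genes for testing. RNA-seq counts came from the medial lobe of C57BL/6 mouse liver, sampled 1 h or 4 h after an injection. The injection held either 5 mg/kg of MitoCDNB or vehicle with 0.1% ethanol, which with both times gave 4 groups of 6 libraries. MitoCDNB is a chlorodinitrobenzene carried into mitochondria by a lipophilic cation, built to lower mitochondrial glutathione and block thioredoxin reductase there. The study asked how the liver transcriptome responds to it over these hours. The labels give no genotype other than the strain, and no age or sex.

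Death receptors are membrane proteins of the TNF receptor family with a death domain in the cell. When a ligand such as TNF, Fas ligand or TRAIL binds, FADD recruits procaspase-8, and a caspase-8 homodimer starts apoptosis. The protein of Cflar, c-FLIP, resembles caspase-8 but lacks a working active site. It pairs with caspase-8 and keeps it from full activation, and the long form of the pair still cleaves RIPK1 and RIPK3. Where caspase-8 is blocked, RIPK1 and RIPK3 assemble into a complex that phosphorylates MLKL, which then breaks the plasma membrane (necroptosis). Hepatocytes are very sensitive to Fas, and to TNF when NF-kB targets such as c-FLIP cannot be made, while their content of RIPK3 is known to be low.

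Cflar and Casp8 are neighbours on the same strand of chromosome 1. In the GENCODE annotation of GRCm38, Cflar spans chr1:58711508-58758884 and Casp8 chr1:58795374-58847503, with 36489 bases between them. Fadd lies at chr7:144577318-144582463 on the minus strand. Promoter sequence is shown for these 3 genes because they are the ones with the clearest differences between groups below: Cflar between treatments at 1 h, and Casp8 and Fadd between times. The windows are from RefSeq (GRCm38.p6), run from 250 bases before the start site to 50 bases from the start site on, and lie at chr1:58711241-58711540 on the plus strand, chr1:58802252-58802551 on the plus strand and chr7:144582392-144582691 on the minus strand. The Casp8 window lies within the GENCODE span of the gene, downstream of its first base, so its start site is internal to that gene model. Capitals mark every match to the 10 motifs searched.
Cflar promoter: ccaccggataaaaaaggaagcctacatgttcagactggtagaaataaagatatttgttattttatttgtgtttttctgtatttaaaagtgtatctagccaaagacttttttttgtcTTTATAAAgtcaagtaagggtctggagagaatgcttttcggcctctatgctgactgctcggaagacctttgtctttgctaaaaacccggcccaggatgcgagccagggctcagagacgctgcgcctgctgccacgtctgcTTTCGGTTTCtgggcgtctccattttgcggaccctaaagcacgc
Casp8 promoter: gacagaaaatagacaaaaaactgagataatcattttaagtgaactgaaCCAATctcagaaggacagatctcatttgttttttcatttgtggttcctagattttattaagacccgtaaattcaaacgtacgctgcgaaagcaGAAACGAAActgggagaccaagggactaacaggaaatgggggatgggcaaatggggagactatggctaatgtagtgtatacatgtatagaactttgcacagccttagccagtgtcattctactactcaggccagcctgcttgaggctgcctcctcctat
Fadd promoter: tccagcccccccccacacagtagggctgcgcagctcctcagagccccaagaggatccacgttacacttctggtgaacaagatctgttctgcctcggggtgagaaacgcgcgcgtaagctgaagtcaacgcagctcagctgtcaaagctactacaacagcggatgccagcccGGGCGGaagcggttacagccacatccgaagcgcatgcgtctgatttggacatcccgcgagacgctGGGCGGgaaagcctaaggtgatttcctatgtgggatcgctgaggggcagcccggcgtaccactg

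Both strands were searched for the NF-kB consensus, the STAT element TTCNNNGAA, the interferon regulatory factor (IRF) element GAAANGAAA and its longer form with an extra base in the gap, the E-box CACGTG, the forkhead motif TGTTTAC, the cyclic AMP element TGACGTCA, the TATA box (TATAAA), the CAAT box of letters CCAAT and, for the GC box, GGGCGG. The Cflar window held the longer IRF element on the opposite strand with its first base at position 7, counted from 1 at the start site. It also held the TATA box on both strands, at positions -134 and -132, and these matches overlap by their letters. The Casp8 window held GAAANGAAA at -109 and the CAAT box at -202, and the Fadd window held the GC box at -79 and -14. Of 32851 mouse promoter windows of this length, 3.44% held the longer IRF element, 3.17% the shorter one, 13.6% the TATA box, 37.4% the CAAT box and 35.7% the GC box. These matches describe letters in the windows and are not shown to be binding sites. RefSeq windows were matched for 8 of the 9 genes. The exception is Tnfrsf10b.

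Libraries held 25.1 to 37.2 M counts (mean 30.3 M), and 9 hepatocyte markers summed to 49397 to 74420 CPM (counts per 1 M). On the second principal component, vehicle replicate 1 (-28.7) and MitoCDNB replicate 2 (-37.2) at 4 h lay apart from the other libraries (-13.7 to 23.5). The sum of 8 brain marker transcripts at 1 h was 11.7 to 16.6 CPM in replicates 4 to 6 and 6.46 to 10.1 CPM in replicates 1 to 3, in both treatments. Values within these subsets are therefore also given for part of the results that use the 1 h libraries. A call given without them may not hold there. At 4 h the brain marker sum was highest, within each group, in the libraries that lay apart on the second component. It was 11.4 CPM in vehicle replicate 1 and 13.1 CPM in MitoCDNB replicate 2. Of the brain markers, Syt1 alone had group medians of 5.06 to 7.15 CPM. Vehicle replicate 4 at 4 h held 609 CPM of 10 Kupffer cell and macrophage markers, against 207 to 296 CPM in the other 5 libraries of its group.

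Per kilobase of exon, the TNF receptor was the most abundant of the 9 transcripts and the TRAIL receptor the least. Over the 24 libraries the median level was 19.1 CPM per kb for Tnfrsf1a, 5.85 for Casp8, 4.57 for Cflar and 3.11 for Fas. Next in order were Ripk1 at 2.37, Fadd at 1.97, Mlkl at 1.07, Ripk3 at 0.503 and Tnfrsf10b at 0.0421 CPM per kb. Each gene was above the next in at least 20 of 24 libraries. The order of Casp8 and Cflar depended on the length used, which was the union of all exons here: by the mean length of coding transcripts, Cflar (17.1 CPM per kb) was above Casp8 (8.49) in 24 of 24 libraries. The RNA was from whole tissue, so fewer cells of a type and less RNA per cell cannot be told apart in any level given here.

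**Figure D1:**
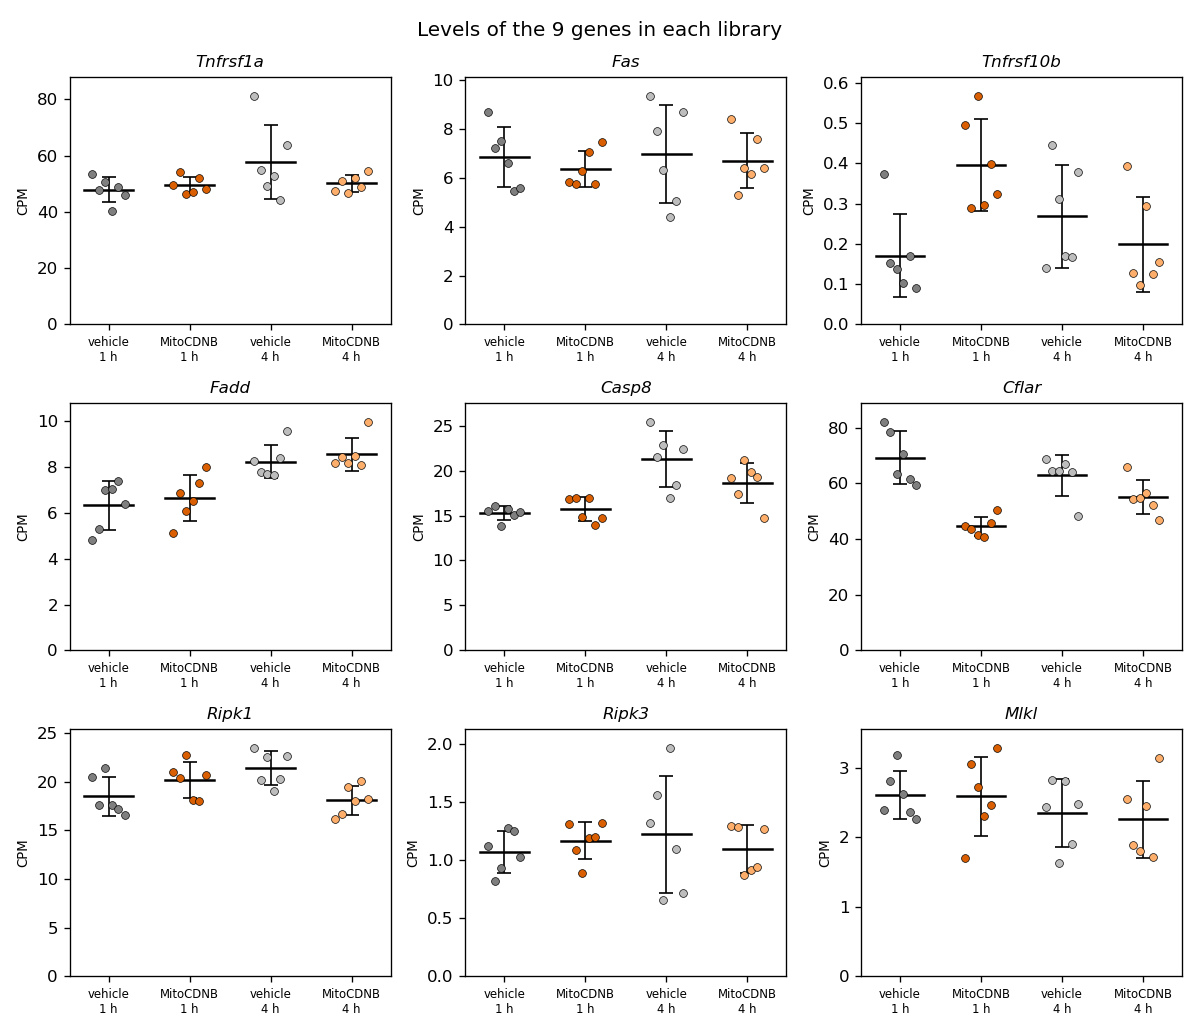
Level of each of the 9 genes in CPM (vertical axes, each starting at 0 with its own scale) in the 6 libraries of each of the 4 groups (points; bars are the group means and whiskers 1 SD). Cflar in MitoCDNB at 1 h sits between 40.9 and 50.6 CPM, below all 6 vehicle libraries of that time (59.3 to 82.2 CPM), while Fas, Ripk3 and Mlkl overlap between all groups.

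One hour after MitoCDNB, Cflar was the single gene of the 9 that passed the test, and it was lower. None of the 9 was called higher. Over all genes, 6.57% were called at 1 h (2.70% higher and 3.87% lower), where called means an adjusted p under 0.05 in edgeR's quasi-likelihood test with Benjamini-Hochberg adjustment. Calling 1 of 9 genes is close to what this background gives. The median log2 fold change was 0.05 over the 9 genes and 0.00 over all 13833 genes. Of the 9 genes, 6 had a log2 fold change above 0 and 3 below.

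In vehicle at 1 h, Cflar had a lowest, median and highest level of 59.3, 66.8 and 82.2 CPM. In MitoCDNB at 1 h these were 40.9, 44.2 and 50.6 CPM. Each of the 6 treated libraries was below each of the 6 vehicle libraries; over all genes, 4.74% were separated in this way in either direction. The group means were 69.2 ± 9.49 and 44.5 ± 3.48 CPM (SD, n = 6), from 1823 to 2647 and 1025 to 1722 counts per library. Cflar fell by 0.64 on the log2 scale (SE 0.0921, 95% interval -0.83 to -0.45), a change of -35.6%, with an adjusted p of 5.97e-05 in edgeR. It ranked 69 of 13833 genes by p. Leaving out each library in turn kept the log2 change between -0.68 and -0.58. Replicates 1 to 3 alone gave -0.78 (adjusted p = 0.00252). Replicates 4 to 6 alone, with 3 libraries a group, gave -0.48, which no longer passed the threshold (adjusted p = 0.0655). Gene counts do not separate the long and short forms of c-FLIP.

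The other caspase-8 pathway genes gave no call at 1 h. Casp8 ran from 13.8 to 16.1 CPM in vehicle (median 15.4) and from 13.98 to 16.98 CPM in MitoCDNB (median 15.8). Its log2 fold change was 0.04 (95% interval -0.14 to 0.23, adjusted p = 0.888 in edgeR), so a change of the size seen for Cflar lies outside its interval. Fadd ran from 4.82 to 7.40 CPM in vehicle (median 6.69) and from 5.12 to 8.02 CPM in MitoCDNB (median 6.70), with a log2 fold change of 0.08 (adjusted p = 0.813). The groups of both genes overlapped over most of their ranges. Exons of Fadd share 239 bases (6.12%) with the antisense gene Faddos, and the strand setting of the counting is not given in the sources used here.

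Since c-FLIP pairs with caspase-8 and keeps it from full activation, the counts of the 2 transcripts were set against each other within each library. In vehicle at 1 h there were 4.54 ± 0.520 Cflar counts per Casp8 count (SD, n = 6, range 3.86 to 5.30). In MitoCDNB at 1 h there were 2.86 ± 0.403 (range 2.42 to 3.43), with no overlap between the groups. At 4 h the ratio was 3.02 ± 0.6253 in vehicle (range 2.16 to 3.95) and 2.98 ± 0.323 in MitoCDNB (range 2.59 to 3.44), which overlapped. Vehicle at 1 h was thus the one group that stood above the others, apart from a single vehicle library at 4 h that reached 3.95. These are ratios of read counts, which depend on transcript length, and were not tested separately. At 1 h the separation of the ratio restates that of Cflar, with Casp8 not called, and is not independent of it.

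**Figure D2:**
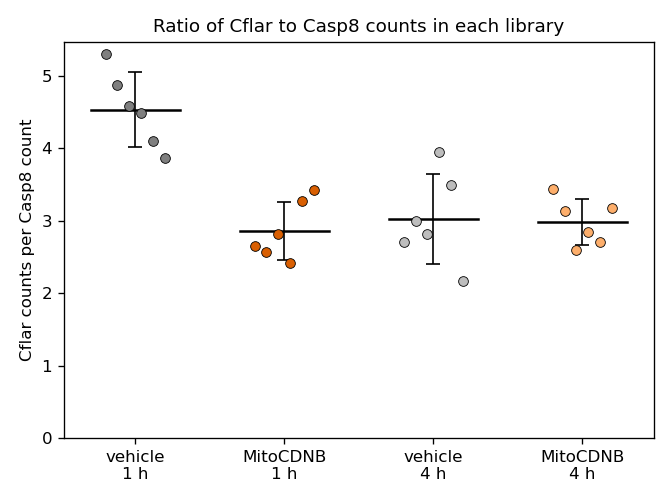
Cflar counts per Casp8 count (vertical axis, no unit, from 0) in each library of the 4 groups (points; bars are means and whiskers 1 SD, n = 6). The vehicle libraries at 1 h lie between 3.86 and 5.30, above the range of 2.42 to 3.43 of MitoCDNB at 1 h, and both groups at 4 h lie between 2.16 and 3.95.

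Among the receptors at 1 h, Tnfrsf10b, which codes for the mouse TRAIL receptor, had the largest fitted difference but was near the limit of detection. It had 3 to 12 counts per library in vehicle and 8 to 14 in MitoCDNB. The lowest, median and highest levels were 0.0906, 0.145 and 0.373 CPM in vehicle and 0.290, 0.361 and 0.5685 CPM in MitoCDNB. The groups overlapped through vehicle replicate 1 alone, the library at 0.373 CPM. The log2 fold change was 1.18 (SE 0.381, 95% interval 0.39 to 1.96), with an adjusted p of 0.0662 in edgeR that missed the threshold. Without vehicle replicate 1 it was 1.56 with an adjusted p of 0.0143. Other omissions of 1 library gave values down to 1.04, with an adjusted p up to 0.15 in edgeR and no call. Replicates 1 to 3 alone gave 1.00 and replicates 4 to 6 alone 1.47, with no call in either.

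Tnfrsf1a, the main receptor for TNF on hepatocytes, ran from 40.3 to 53.5 CPM in vehicle at 1 h (median 48.4) and from 46.4 to 54.2 CPM in MitoCDNB (median 48.8). Its log2 fold change was 0.05 (adjusted p = 0.885 in edgeR). Fas ran from 5.44 to 8.70 CPM (median 6.92) and from 5.73 to 7.46 CPM (median 6.06), with a log2 fold change of -0.11 (adjusted p = 0.823). The range of MitoCDNB lay inside that of vehicle for Fas and largely inside it for Tnfrsf1a.

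The necroptosis genes gave no call at 1 h. Ripk1 ran from 16.5 to 21.4 CPM in vehicle (median 17.6) and from 17.98 to 22.8 CPM in MitoCDNB (median 20.5), with a log2 fold change of 0.13 (adjusted p = 0.445 in edgeR). Ripk3 ran from 0.817 to 1.27 CPM (median 1.07) and from 0.893 to 1.32 CPM (median 1.19), with 0.13 (adjusted p = 0.849). Mlkl ran from 2.26 to 3.18 CPM (median 2.50) and from 1.70 to 3.29 CPM (median 2.59), with -0.01 (adjusted p = 0.99). All 3 overlapped between the groups. The exons of Ripk1 share 241 bases (2.89%) with Serpinb6a on the opposite strand and 511 bases (6.12%) with a processed pseudogene, so its counts may hold reads of either.

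At 4 h none of the 9 genes was called, against 0.824% of all genes (0.455% higher and 0.369% lower). Between these groups 0.896% of all genes had no overlap, and none of the 9 did. In edgeR 3 of the 9 had an unadjusted p under 0.05, against 14.3% of all genes, and DESeq2 also called 0. Of the 9 log2 fold changes 8 were below 0, with a median of -0.19 against -0.00 over all genes. At 4 h, the 10 Kupffer cell and macrophage markers had a median of -0.37 with 0 called and 4 at an unadjusted p under 0.05 in edgeR, and summed to 207 to 609 CPM in vehicle and 199 to 295 CPM in MitoCDNB. Of 8 endothelial cell markers 3 were called lower and 1 higher, with sums of 235 to 284 and 232 to 283 CPM. The 7 stellate cell markers had a median of 0.28, with 0 called and 4 at an unadjusted p under 0.05 in edgeR. Of 9 hepatocyte markers 1 was called higher and 0 lower. No marker of these lists was at 0 in a whole group, and the part of these cells in the levels of the 9 genes was not tested. Ripk1 had the smallest p of the 9. It ran from 19.1 to 23.5 CPM in vehicle (median 21.4) and from 16.2 to 20.02 CPM in MitoCDNB (median 18.1), and the groups overlapped between 19.1 and 20.02 CPM. Its log2 fold change was -0.24 (SE 0.0772), with each of the 6 treated libraries below the vehicle mean and an adjusted p of 0.132.

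Cflar at 4 h had a lowest, median and highest level of 48.5, 64.5 and 68.9 CPM in vehicle and of 46.8, 54.7 and 65.9 CPM in MitoCDNB. The ranges overlapped almost fully because vehicle replicate 6 was at 48.5 CPM, with the next vehicle library at 64.1 CPM. The log2 fold change was -0.19 (95% interval -0.38 to -0.00, adjusted p = 0.341 in edgeR), and -0.26 without vehicle replicate 6 (adjusted p = 0.141). Casp8 ran from 16.95 to 25.5 CPM in vehicle (median 21.9) and from 14.7 to 21.2 CPM in MitoCDNB (median 19.2), with a log2 fold change of -0.19 (adjusted p = 0.324). For Casp8 all 6 treated libraries were below the vehicle mean, and for Cflar 5 of 6 were.

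Fadd was the one gene with a positive value at 4 h. It ran from 7.68 to 9.58 CPM in vehicle (median 8.02) and from 8.08 to 9.99 CPM in MitoCDNB (median 8.31), with a log2 fold change of 0.06 (adjusted p = 0.868 in edgeR). Without MitoCDNB replicate 6, its highest library, the value was 0.01.

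For Tnfrsf1a and Ripk3 a single vehicle library set the value at 4 h. Tnfrsf1a ran from 44.3 to 81.3 CPM in vehicle (median 53.9) and from 46.7 to 54.6 CPM in MitoCDNB (median 49.9). The library at 81.3 CPM was vehicle replicate 1, one of those that lay apart on the second component. The log2 fold change was -0.21 (adjusted p = 0.355 in edgeR), and -0.08 without that library. Ripk3 ran from 0.657 to 1.97 CPM in vehicle (median 1.21) and from 0.872 to 1.30 CPM in MitoCDNB (median 1.10), with a log2 fold change of -0.16 (adjusted p = 0.8). The library at 1.97 CPM was vehicle replicate 4. It also held the highest sum of the macrophage markers (609 CPM, all 10 above 0) and of 5 B cell markers (7.93 CPM). Without it the log2 fold change of Ripk3 was 0.03. The macrophage markers were uneven in vehicle at 4 h. Marco ran from 2.97 to 90.8 CPM (median 3.78), and Clec4f from 54.7 to 84.9 CPM (median 72.7). The part of macrophages and B cells in the Ripk3 level was not tested.

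Mlkl (1.63 to 2.82 CPM in vehicle, 1.72 to 3.14 CPM in MitoCDNB) and Fas (4.41 to 9.37 and 5.30 to 8.41 CPM) overlapped at 4 h over most of their ranges, with log2 fold changes of -0.05 each (adjusted p = 0.937 and 0.928 in edgeR). Tnfrsf10b ran from 0.139 to 0.446 CPM in vehicle (median 0.241) and from 0.0969 to 0.393 CPM in MitoCDNB (median 0.141). Its log2 fold change was -0.44 (adjusted p = 0.676).

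**Figure D3:**
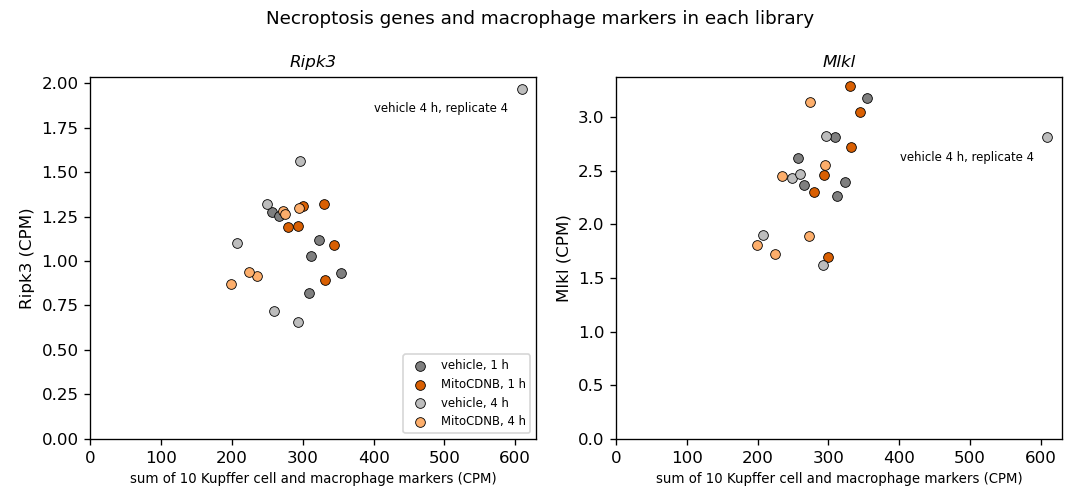
Level of Ripk3 (left) and Mlkl (right) in CPM (vertical axes) against the summed CPM of 10 Kupffer cell and macrophage markers (horizontal axis) in each of the 24 libraries, coloured by group. One library, vehicle replicate 4 at 4 h, lies at 609 CPM of the markers and has the highest Ripk3 level (1.97 CPM).

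The difference between the MitoCDNB effects at 4 h and 1 h was tested as an interaction. None of the 9 genes passed, against 4.07% of all genes (2.38% higher and 1.69% lower), and 3 had an unadjusted p under 0.05 in edgeR, against 16.9% of all genes. Cflar was just outside the threshold: its effect was 0.45 higher at 4 h than at 1 h on the log2 scale (95% interval 0.18 to 0.71, adjusted p = 0.0508). Ripk1 followed, with an effect lower by 0.36 at 4 h (95% interval -0.59 to -0.14, adjusted p = 0.0597). The value for Tnfrsf10b was -1.61 (adjusted p = 0.107), and -1.999 with an adjusted p of 0.0303 without vehicle replicate 1 of 1 h. Other omissions of 1 library gave values up to -1.42, with an adjusted p up to 0.184 in edgeR and no call. DESeq2 called Cflar (adjusted p = 0.0282) and Ripk1 (0.0353), so both lie at the edge of what these libraries resolve. In edgeR, leaving out 1 library brought Cflar under the threshold in 7 of 24 cases: vehicle replicates 3 (adjusted p = 0.0472), 5 (0.0438) and 6 (0.0358) and MitoCDNB replicate 6 (0.038) of 1 h, and vehicle replicates 1 (0.0414) and 4 (0.0486) and MitoCDNB replicate 6 (0.0262) of 4 h. It did so for Ripk1 in 6 of 24: vehicle replicates 1 (0.0412) and 3 (0.0292) and MitoCDNB replicates 4 (0.0479) and 5 (0.0443) of 1 h, and vehicle replicate 4 (0.0394) and MitoCDNB replicate 5 (0.0491) of 4 h. Other omissions raised the adjusted p in edgeR, up to 0.0977 for Cflar and 0.108 for Ripk1. With replicates 1 to 3 or 4 to 6 of 1 h alone, 0 of the 9 genes were called. Over the alternatives other than leaving out single libraries, Cflar went down to 0.29 and Ripk1 to -0.31. Their adjusted p in edgeR reached 0.43 and 0.243 there.

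**Figure D4:**
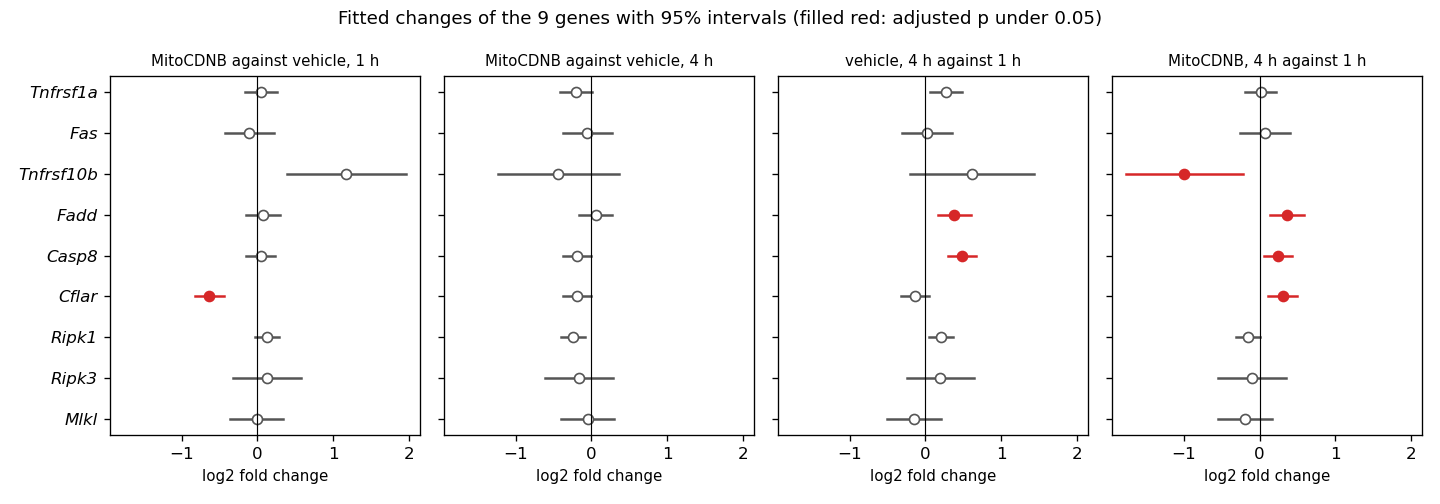
Fitted log2 fold change of the 9 genes (horizontal axis, points) with 95% intervals (lines) in 4 comparisons; filled red points have an adjusted p under 0.05. Cflar at -0.64 is the one call between treatments at 1 h, there is none at 4 h, and Fadd and Casp8 are called in both comparisons of 4 h with 1 h.

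The adaptor and the caspase were higher at 4 h than at 1 h in mice given vehicle alone. These 2 of 9 genes were called higher and none lower, against 5.44% of all genes called (2.99% higher and 2.46% lower). Casp8 rose from 15.2 ± 0.790 to 21.3 ± 3.11 CPM (SD, n = 6). Its log2 fold change was 0.48 (SE 0.0902, 39.3%), with an adjusted p of 0.00277 in edgeR and no overlap between the groups, a separation seen in 2.50% of all genes. Against replicates 1 to 3 of vehicle at 1 h alone it was 0.49 with an adjusted p of 0.0588. Against replicates 4 to 6 it was 0.47 (0.0498).

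Fadd rose from 6.33 ± 1.05 to 8.23 ± 0.727 CPM with no overlap, a log2 fold change of 0.38 (adjusted p = 0.0363 in edgeR). This call was lost on leaving out any of 6 libraries: vehicle replicates 1 (adjusted p = 0.0859), 2 (0.0865) and 6 (0.0674) of 1 h and replicates 1 (0.0517), 5 (0.0601) and 6 (0.0885) of 4 h. It was also lost with the compared groups alone (0.0804) and against replicates 4 to 6 of 1 h alone, which gave 0.25 (0.224). Replicates 1 to 3 of 1 h gave 0.53 (0.0429). Cflar gave -0.14 (adjusted p = 0.437) and Ripk1 0.21 (0.114). Tnfrsf1a gave 0.27 (0.121), and 0.34 (0.0448) without vehicle replicate 5 of 4 h. Other omissions of 1 library gave values down to 0.15, with an adjusted p up to 0.315 in edgeR and no call. The clock time of injection and sampling is not in the labels. In the titles all libraries of 4 h are numbered before those of 1 h. Time and library order therefore cannot be told apart in the comparisons over time.

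In mice given MitoCDNB, 4 of the 9 genes differed between 4 h and 1 h, 3 higher and 1 lower, against 28.5% of all genes (15.1% higher and 13.4% lower). Fadd rose by a log2 fold change of 0.36 (adjusted p = 0.0127 in edgeR) with no overlap, as 13.1% of all genes did. Cflar rose by 0.31 (adjusted p = 0.0136), from 44.5 ± 3.48 to 55.1 ± 6.24 CPM (SD, n = 6), with overlap between 46.8 and 50.6 CPM. Against replicates 4 to 6 of 1 h alone neither passed: Fadd gave 0.23 (adjusted p = 0.123) and Cflar 0.27 (0.103). Casp8 rose by 0.24 (adjusted p = 0.0445), a call lost in 7 of 12 omissions of 1 library: MitoCDNB replicates 3 (0.0869), 5 (0.102) and 6 (0.0881) of 1 h and 1 (0.0726), 3 (0.114), 4 (0.0897) and 5 (0.081) of 4 h. Tnfrsf10b fell by 0.99 (adjusted p = 0.0481), a call lost in 8 of 12: replicates 1 (0.0936), 3 (0.108), 5 (0.0709) and 6 (0.0536) of 1 h and 2 (0.093), 3 (0.109), 5 (0.102) and 6 (0.0897) of 4 h. Neither Casp8 nor Tnfrsf10b was called against replicates 1 to 3 or 4 to 6 of 1 h alone. The comparisons over time share their libraries with the comparisons between treatments and are not independent of them.

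In a list of 7 ligands of the TNF family, some of which bind receptors other than those above, no gene was called in either treatment comparison. Of the 7 genes 3 passed the filter: Tnfsf10, Ltb and Tnfsf12. Tnf and Fasl, which code for TNF and Fas ligand, did not pass, with group means of at most 0.190 and 0.108 CPM. Tnfsf10, which codes for TRAIL, went from 3.24 ± 0.335 CPM in vehicle to 2.62 ± 0.511 CPM in MitoCDNB at 1 h (SD, n = 6), a log2 fold change of -0.30 (adjusted p = 0.572 in edgeR).

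Of 7 other death and TNF receptors tested at 1 h, 1 was higher and none lower. This and the counts of the lists that follow stand against 2.70% of all genes called higher and 3.87% called lower at 1 h, and 17.7% with an unadjusted p under 0.05 in edgeR. This was Tnfrsf1b, the second TNF receptor, which has no death domain. It ran from 26.6 to 38.1 CPM in vehicle (median 31.9) and from 64.3 to 86.6 CPM in MitoCDNB (median 72.4), with no overlap. Its log2 fold change was 1.18 (SE 0.171, adjusted p = 7.76e-05 in edgeR), against the 0.05 of Tnfrsf1a. At 4 h it was -0.37 (adjusted p = 0.325), and the difference between the effects was -1.55 (adjusted p = 0.000441). Neutrophils are among the cells that express this receptor. The sum of 7 neutrophil markers in the table (of 8 listed, none at 0 in a whole group) was 4.44 to 8.73 CPM in vehicle and 10.3 to 15.5 CPM in MitoCDNB at 1 h, without overlap. It was 1.77 to 9.13 and 1.85 to 3.59 CPM at 4 h. Of the 4 markers that were tested at 1 h, 0 were called and 3 had an unadjusted p under 0.05 in edgeR. The part of such cells in the level of Tnfrsf1b was not tested.

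A list of adaptors, ubiquitin ligases and kinases around the complex of TNF receptor 1 had 19 genes tested at 1 h. Not every gene of this list is part of the complex. Of the 19, 2 were higher and 1 lower. The higher ones were Mapkapk2, a kinase that phosphorylates RIPK1, and Chuk, a kinase of the IKK complex. Mapkapk2 went from 51.5 ± 9.14 to 90.6 ± 13.1 CPM (SD, n = 6), with a log2 fold change of 0.81 (adjusted p = 6.6e-05 in edgeR). Chuk went from 72.5 ± 3.74 to 85.0 ± 2.26 CPM with 0.23 (adjusted p = 0.0453), which passed in only 1 of 12 omissions of a library (0.037 without vehicle replicate 4) and reached 0.105 without vehicle replicate 6. The lower gene was Rnf31, the catalytic subunit of the linear ubiquitin ligase LUBAC, at 14.4 ± 1.51 and 10.7 ± 1.24 CPM with a log2 fold change of -0.43 (adjusted p = 0.00208). For Rnf31, replicates 1 to 3 alone gave -0.65 (adjusted p = 0.00388) and replicates 4 to 6 alone -0.21 (0.474). Other markers differed between these groups as well. Of 5 cholangiocyte markers 1 was called higher in MitoCDNB at 1 h and 4 had an unadjusted p under 0.05 in edgeR, with a median log2 fold change of 0.83. Their sum was 20.1 to 28.0 CPM in vehicle, 43.3 to 54.1 CPM in MitoCDNB replicates 1 to 3 and 21.5 to 35.7 CPM in MitoCDNB replicates 4 to 6, and none of the 5 was at 0 in a whole group. Of 8 T and natural killer cell markers 3 were tested and 1 was called higher, with sums of 1.99 to 3.21 CPM in vehicle and 2.30 to 4.47 CPM in MitoCDNB. The part of these cells and of neutrophils in the list genes called at 1 h was not tested.

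Among 9 deubiquitinases and other brakes of the complex, 1 was higher at 1 h and none lower. Otulin, which removes linear ubiquitin chains, went from 21.7 ± 2.10 to 27.9 ± 2.57 CPM (SD, n = 6) with a log2 fold change of 0.36 (adjusted p = 0.0188 in edgeR). Without vehicle replicate 1 its adjusted p was 0.0521. Replicates 1 to 3 alone gave 0.52 (adjusted p = 0.055) and replicates 4 to 6 alone 0.20 (0.645). Tnfaip3, an NF-kB target that codes for A20, ran from 1.41 to 57.2 CPM in vehicle at 1 h with a median of 2.52, so a single library was far above the others.

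Of 15 downstream caspases and mitochondrial genes of apoptosis none was called at 1 h, and 2 had an unadjusted p under 0.05 in edgeR. Bak1, which codes for a pore former of the outer mitochondrial membrane, had the smallest p, with a log2 fold change of 0.24 (adjusted p = 0.0617). Of 14 other necroptosis genes, none was higher and 1 was lower: Tlr4, the endotoxin receptor that can engage RIPK3 through TRIF. Tlr4 went from 1.04 ± 0.182 to 0.571 ± 0.0788 CPM (SD, n = 6), a log2 fold change of -0.87 (adjusted p = 0.00642). Of 9 pyroptosis genes tested, 1 was higher: Nlrp3, an inflammasome sensor, went from 0.885 ± 0.186 to 1.46 ± 0.225 CPM with 0.73 (adjusted p = 0.029). The call on Nlrp3 was lost without MitoCDNB replicate 4 (0.0513) or 6 (0.083) or vehicle replicate 2 (0.0802), 4 (0.0576) or 5 (0.0564). In the subsets of 3 libraries a group, Tlr4 gave -0.87 and -0.86 and Nlrp3 0.65 and 0.80, with no call in either.

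At 4 h none of these 7 lists held a called gene. The counts at an unadjusted p under 0.05 in edgeR, which 14.3% of all genes reached, were 0 of 3 ligands, 3 of 7 receptors, 2 of 19 complex genes, 3 of 9 brakes, 2 of 15 caspases and mitochondrial genes, 2 of 14 other necroptosis genes and 2 of 9 pyroptosis genes. The difference between the effects passed for 7 genes of the lists, against 4.07% of all genes. These were 1 of 7 receptors, 2 of 9 brakes and 1 of 9 pyroptosis genes, all negative. Of 19 complex genes 2 were negative and 1 positive. None of 3 ligands, 15 caspases and mitochondrial genes or 14 other necroptosis genes passed. The difference was negative for Tnfrsf1b, for Chuk (-0.45, adjusted p = 0.00702), Mapkapk2 (-0.68, 0.0179), Cyld (-0.35, 0.0253), Otulin (-0.46, 0.0457) and Nlrc4 (-1.70, 0.0314), and positive for Rnf31 (0.53, 0.00962). Leaving out 1 library lost the call on Otulin in 19 of 24 cases (up to an adjusted p of 0.0815, without vehicle replicate 2 of 1 h) and on Nlrc4 in 8 of 24 (up to 0.0691, without vehicle replicate 4 of 4 h). For Cyld it was lost in 1 case, without MitoCDNB replicate 6 of 1 h (0.0502). Rnf31 lay at 9.01 to 12.5 CPM in MitoCDNB at 1 h, at 12.6 to 16.8 CPM in vehicle at 1 h, and then stood at 14.04 to 16.5 CPM in vehicle and 14.3 to 19.9 CPM in MitoCDNB at 4 h.

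**Figure D5:**
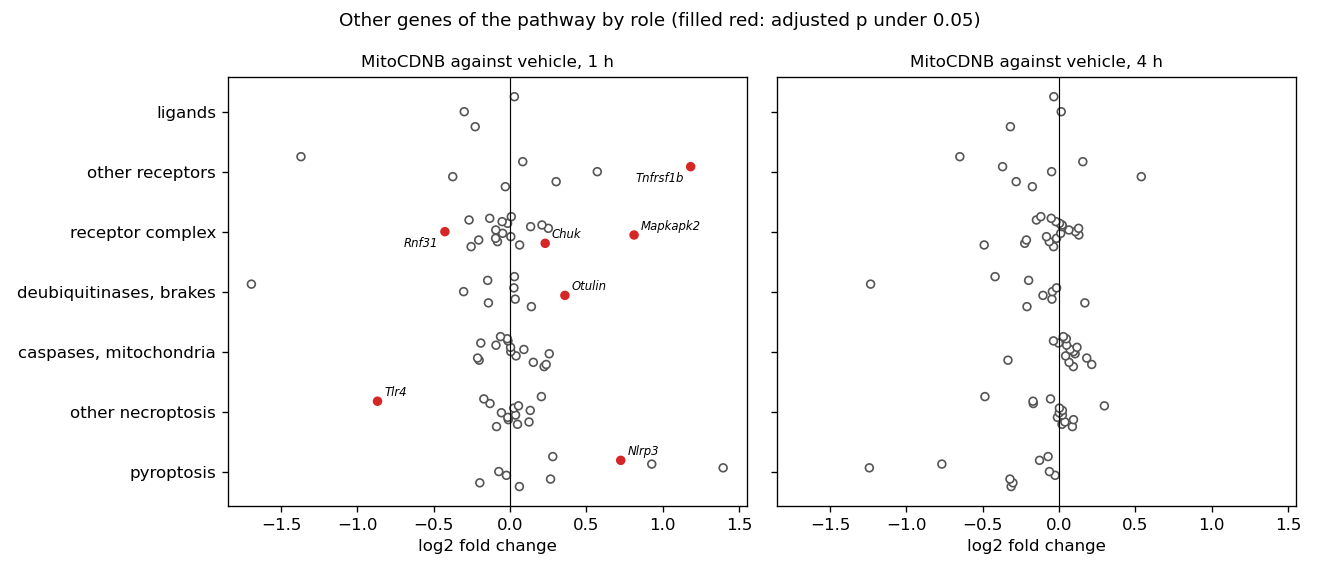
Log2 fold change of MitoCDNB against vehicle (horizontal axis) at 1 h (left) and 4 h (right) for every tested gene of the 7 lists (one point per gene, rows are lists); filled red points have an adjusted p under 0.05 and are named. The 7 calls lie at 1 h, with Tnfrsf1b (1.18) and Mapkapk2 (0.81) highest among them and Tlr4 (-0.87) lowest, and there is none at 4 h.

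From 1 h to 4 h in vehicle, where 2.99% of all genes were called higher and 2.46% lower, 3 of 9 brakes were higher and none lower: Cyld (log2 fold change 0.26, adjusted p = 0.0163 in edgeR), Otulin (0.44, 0.00712) and Tnip2 (0.58, 0.0117). Among the caspases and mitochondrial genes, Bak1 was higher (0.36, 0.00639). Of 14 other necroptosis genes, Tlr3, a sensor of double-stranded RNA, was higher (0.59, 0.018), a call lost without vehicle replicate 5 of 1 h (0.0523). No ligand, other receptor, complex or pyroptosis gene was called there. Against replicates 1 to 3 of vehicle at 1 h alone, Otulin kept its call, and Cyld (adjusted p = 0.2), Tnip2 (0.256), Bak1 (0.0516) and Tlr3 (0.268) did not. Against replicates 4 to 6 alone, Tnip2 and Tlr3 kept theirs, and Cyld (0.0679), Otulin (0.127) and Bak1 (0.135) did not. From 1 h to 4 h in MitoCDNB, where 15.1% of all genes were called higher and 13.4% lower, the calls were 1 of 3 ligands higher, 3 of 7 receptors lower, 2 of 19 complex genes higher and 4 lower, and 2 of 9 brakes higher. They were 3 of 15 caspases and mitochondrial genes higher and 2 lower, 4 of 14 other necroptosis genes higher and 2 lower, and 4 of 9 pyroptosis genes lower. Of these, the calls on Il18 (10 of 12 omissions of a library, up to an adjusted p of 0.135 without replicate 4 of 4 h), Cycs (7 of 12, up to 0.096 without replicate 6 of 1 h) and Tnfrsf12a (5 of 12, up to 0.115 without replicate 2 of 1 h) were lost.

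The genes whose levels were most like those of Cflar over the 24 libraries, among 11239 candidates, were Golga1, Dnajb9 and Camsap1. Pearson's r of log2 CPM was 0.873 for Golga1, 0.862 for Dnajb9 and 0.812 for Camsap1, and 0.658, 0.698 and 0.418 after the group means were taken out. The points share library depth and scaling. The 3 genes were picked by the r over all 24 libraries, with the group differences left in. Differences between groups like those of Cflar are thus partly built into the choice, and the values below describe them only. Golga1, which codes for a Golgi protein, was lower at 1 h (log2 fold change -0.55, adjusted p = 0.000311 in edgeR). Dnajb9, an endoplasmic reticulum cochaperone, was lower by a log2 fold change of -0.81 (adjusted p = 0.00262), and Camsap1, a microtubule minus-end protein, by -0.76 (0.000368). At 4 h none of the 3 was called.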

How the data were processed

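Poly(A) RNA of 24 mouse livers was measured. Per the labels' protocols, RNA was extracted with the PureLink RNA Mini Kit and the NEBNext Ultra RNA kit served for the libraries. The tools were HISAT2, Trim Galore, CASAVA 1.8.4 and DESeq2 on mm10, per the submitters' processing notes. The authors deposited raw counts per gene symbol and library, and these were used as deposited. What counted the reads, with which annotation, strand setting and rule for multiply matching reads, is not given in the sources used here. Totals were 25.1 to 37.2 M counts per library. Replicates are mice per the labels' protocol.

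Genes were kept by filterByExpr (minimum count 10, minimum total 15), a loss of 0.0306% of counts. After TMM scaling, 1 model with 4 groups was fitted to all 24 libraries and tested by edgeR 4.0.16 (robust quasi-likelihood F test; R 4.3.3, limma 3.58.1), with Benjamini-Hochberg adjustment over 13833 genes and calls at an adjusted p under 0.05. The common biological coefficient of variation was 0.179. Levels are CPM on TMM-scaled totals. The 5 comparisons were MitoCDNB against vehicle at each time, their difference, and 4 h against 1 h in each treatment. Alternatives were RLE scaling, no count filter, DESeq2 1.42.0, the replicate number as a block, the compared groups alone, the 1 h subsets, leaving out both libraries that lay apart, and leaving out each library. The level by mean transcript length was added after seeing the data. The script was first tested on simulated data. No pair of libraries in a group was a duplicate (chi-square per gene 15.3 to 538 over 60 pairs).

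The 9 genes, the 7 pathway lists and the marker lists were chosen with earlier results of these data known. All 9 genes are named in each comparison. Of a pathway list, up to 4 called genes with the smallest p are named, and the 3 genes most like a called member by Pearson's r of log2 CPM (mean of at least 1 CPM). Tnf, Fasl, Tnfsf10, Ltb, Tnfsf12, Tnfaip3, Bak1, Il18, Cycs and Tnfrsf12a were named after their values were seen. The result of 1 list gene is not reported here. Promoter sequences are from RefSeq and gene models from GENCODE, both on GRCm38.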

Additional observations from a re-analysis of the deposited data

Results flagged for a closer look

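In 3 of 36 groups of 6 libraries (9 genes in 4 groups), the highest or lowest library stood apart from the rest by Dixon's criterion. Chance alone flags about 1 group in 20. In vehicle at 4 h, Cflar was at 48.5 CPM in replicate 6, with the next library at 64.1 CPM. In MitoCDNB at 4 h, Fadd was at 9.99 CPM in replicate 6, with the next at 8.50 CPM. In vehicle at 1 h, Tnfrsf10b was at 0.373 CPM in replicate 1, with the next at 0.169 CPM. The values without these libraries stand beside the results above.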

How the results depend on the processing

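No called value reversed direction under the alternatives run. The 9 genes gave 0 calls at 4 h under each alternative. At 1 h, 1 gene (Cflar) was called throughout, except for 0 within replicates 4 to 6 and 1 to 2 when single libraries were left out. In the difference between effects, 2 genes were called with DESeq2 and 2 with the replicate block, 1 without both libraries that lay apart, and 0 to 2 on leaving out single libraries. For vehicle at 4 h against 1 h, 1 was called with the compared groups alone, 1 within each 1 h subset, and 1 to 2 on leaving out libraries. For MitoCDNB at 4 h against 1 h, 2 were called within replicates 1 to 3, 0 within replicates 4 to 6, 2 with the block and 2 to 4 on leaving out libraries.

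Over all genes, the subsets of 1 h (fewer libraries) gave 244 and 256 calls at 1 h against 909, 150 and 275 against 563 for the difference, 177 and 309 against 753 for vehicle over time, and 2395 within replicates 1 to 3 against 3940 for MitoCDNB over time. At 4 h, against 114 calls, there were 343 with DESeq2, 18 with the compared groups alone, 247 without both libraries that lay apart and 63 to 412 on leaving out single libraries. For vehicle over time, 415 were called with the compared groups alone and 480 to 749 on leaving out libraries. The cause of these shifts was not tested.

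No label says that a replicate number marks paired mice. Correlations of same-numbered libraries ran from -0.0666 to 0.212 at 1 h and -0.213 to 0.265 at 4 h. At each time 2 of 6 libraries correlated best with their own number. Correlations this weak cannot settle whether the numbers pair the mice, so the block was run as an alternative. With the block, Cflar at 1 h was -0.63 (adjusted p = 0.000194 in edgeR). For the difference, the block gave Cflar 0.44 (0.0374) and Ripk1 -0.37 (0.0468). For MitoCDNB at 4 h against 1 h, Casp8 (0.0506) and Tnfrsf10b (0.0598) lost their calls. Tnfrsf10b was also not called with no count filter, with DESeq2, with the compared groups alone, in either 1 h subset, or without both libraries that lay apart. Among the alternatives other than leaving out single libraries, only RLE scaling kept its call. Depth limits Tnfrsf10b, with 3 to 14 counts per library at 1 h.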
